A study of Mus musculus with 19 samples.

Results

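The Cyp2c genes encode cytochrome P450 enzymes of subfamily 2C. The 10 members described here, Cyp2c29, Cyp2c37, Cyp2c38, Cyp2c39, Cyp2c40, Cyp2c50, Cyp2c54, Cyp2c67, Cyp2c68 and Cyp2c69, were taken by symbol from a table of 24537 genes. Transcript levels were measured by RNA sequencing of poly(A) RNA from isolated hepatocytes, the parenchymal cells of the liver, with 1 library per mouse. All mice were male wild-type C57BL/6J animals, so no allele or agent separated the groups. A group of 10 mice was 5 months old and a group of 9 was 24 months old. The first cull day took 5 young and 5 old mice and the second took 5 young and 4 old mice. Each mouse is called by the number of its library. The labels name no treatment and no pooling of animals, and they describe separate mice.

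Cytochromes P450 sit in the endoplasmic reticulum and insert an oxygen atom into their substrates, with electrons passed on by P450 oxidoreductase and, in part, cytochrome b5. Mouse Cyp2c enzymes act on drugs and on endogenous lipids, above all arachidonic acid, which epoxygenases turn into epoxyeicosatrienoic acids that soluble epoxide hydrolase then opens. In liver they are among the genes set by nuclear receptors such as CAR and PXR and by hepatocyte factors such as HNF4A, and several differ between the sexes under growth hormone.

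The members lie side by side on chromosome 19, from 39287085 to 40113955 of the mm10 build (826.871 kb), with 4 on the plus strand and 6 on the minus strand. Their transcripts fall into 3 sequence groups. Cyp2c29, Cyp2c38 and Cyp2c39 form the first, Cyp2c37, Cyp2c50 and Cyp2c54 the second, and Cyp2c40, Cyp2c67, Cyp2c68 and Cyp2c69 the third. Identity between GENCODE transcripts was 87.9% to 98.0% within a group and 75.8% to 80.4% between groups. The likeness limits what short reads can tell apart. No window of 100 bases (the read length) in the transcript used for Cyp2c29, Cyp2c38 or Cyp2c39 occurred in a transcript of another gene. The pseudogene Cyp2c53-ps, at 0 to 0.561 CPM, shares 43 windows with a different annotated transcript of Cyp2c29. In the second group the share of such windows was 4.70% for Cyp2c37, 7.59% for Cyp2c54 and 9.40% for Cyp2c50. In the third it was 19.8% for Cyp2c68, 23.7% for Cyp2c67, 36.3% for Cyp2c69 and 44.1% for Cyp2c40. Every shared window was shared within the same group, so the division of reads within the third group is uncertain.

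The promoter stretch below is printed because the 4 members of the third group share 9 letters in it that the other members shown carry with 1 or 2 substitutions. RefSeq start sites (GRCm38.p6) gave a window of 250 bases before to 50 after the start for 9 members. Cyp2c54 had no entry. Capitals mark the letters CAAAGTCCA, a form of the HNF4A motif, or the letters aligned to them in the other members. All are written 5′ to 3′ on the strand of the gene.
Cyp2c29, chr19:39286946-39287014, plus strand: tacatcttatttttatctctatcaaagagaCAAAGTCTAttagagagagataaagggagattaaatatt
Cyp2c39, chr19:39510706-39510774, plus strand: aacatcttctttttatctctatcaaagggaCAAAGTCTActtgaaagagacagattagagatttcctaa
Cyp2c38, chr19:39463148-39463216, minus strand: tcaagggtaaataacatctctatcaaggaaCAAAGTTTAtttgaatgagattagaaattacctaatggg
Cyp2c37, chr19:39992278-39992346, plus strand: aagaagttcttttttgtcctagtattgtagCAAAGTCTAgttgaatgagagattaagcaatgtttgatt
Cyp2c50, chr19:40089535-40089603, plus strand: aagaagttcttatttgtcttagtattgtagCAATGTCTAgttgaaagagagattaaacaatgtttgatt
Cyp2c67, chr19:39649129-39649197, minus strand: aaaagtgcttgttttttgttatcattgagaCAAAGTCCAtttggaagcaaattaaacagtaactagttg
Cyp2c68, chr19:39741140-39741208, minus strand: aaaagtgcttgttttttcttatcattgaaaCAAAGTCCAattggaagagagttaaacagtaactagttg
Cyp2c40, chr19:39812821-39812889, minus strand: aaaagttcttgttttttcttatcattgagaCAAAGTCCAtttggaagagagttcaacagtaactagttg
Cyp2c69, chr19:39886806-39886874, minus strand: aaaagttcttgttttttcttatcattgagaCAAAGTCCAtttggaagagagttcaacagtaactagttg

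CAAAGTCCA was present in all 4 members of the third group and in none of the other 5 with an entry, against 0.475% of 32851 mouse promoters of the same length. It was also present in 2 Cyp2c genes that are not members here, Cyp2c65 and Cyp2c70, so it does not mark the third group alone. Counted from 1 at the first capital, the others differed from it by C8T in Cyp2c29, Cyp2c39 and Cyp2c37, by C7T and C8T in Cyp2c38, and by A4T and C8T in Cyp2c50. The printed stretch of Cyp2c40 and Cyp2c69 is the same in every letter. The first capital lay 45 bases before the annotated start in Cyp2c40, 75 in Cyp2c69, 77 in Cyp2c68 and 125 in Cyp2c67. The members descend from common copies, so these matches are not independent of each other. A search of both strands for 7 further motifs found the FOXA letters TGTTTAC (3.65% of all promoters) in Cyp2c38 and Cyp2c39. The letters TATAAA (13.6%) were found in 6 members. The STAT5 letters TTCNNNGAA (8.30%), the CEBP letters TTGCGCAA (0.183%), and the DR4 nuclear receptor (0.0152%), HNF1 (0.0091%) and glucocorticoid receptor (0.475%) motifs were found in no member's window.

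Totals over genes were 17381439 to 20287628.5 counts per library. All 10 hepatocyte marker genes were detected above the filter, with Alb, albumin, at a mean of 94657 CPM in young and 128990 CPM in old libraries (SD 23038 and 23383, n = 10 and 9). The 10 went both ways with age in edgeR, with Alb and Apoa1 higher and Tat, Cps1 and Hnf4a lower. CPM stands for counts scaled to a common library total after TMM scaling, which corrects library totals for composition. Markers of other liver cells were higher in old mice: 13 of 14 macrophage, 9 of 13 endothelial and 11 of 12 stellate genes rose by edgeR's adjusted p, against 16.3% of all genes. Their mean log2 CPM, joined with 3 lymphocyte genes, ranged from 2.26 to 3.85 in young and from 2.41 to 5.68 in old mice, with old mouse 1187 highest. In bulk RNA, fewer cells of a type and less RNA per cell cannot be told apart. Young mice 1184, 1186 and 1188, all culled on day 1, stood apart, with a mean log2 CPM over 20 acute phase genes of 9.84 to 10.84, where the remaining 7 young mice had 6.55 to 7.21 and old mice 7.06 to 9.04. In edgeR 0 of the 20 acute phase genes passed by age, against 30.9% of all genes. DESeq2 called 0, against 31.6% of the genes it gave an adjusted p. At an unadjusted p under 0.05 there was 1 in edgeR, against 42.3% of all genes.

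Per kilobase of transcript, so that members can be compared, Cyp2c29 was the highest in young mice at 590 ± 142 CPM per kb (SD, n = 10) and Cyp2c39 the lowest at 0.534 ± 0.203 (SD, n = 10). Cyp2c50 followed Cyp2c29 at 324 ± 58.6 CPM per kb (SD, n = 10), and their ranges over mice overlapped. Cyp2c67 (124), Cyp2c54 (101), Cyp2c37 (97.6) and Cyp2c68 (85.7) formed a middle tier whose neighbours overlapped. Cyp2c38 (6.50) and Cyp2c40 (6.02) formed a low tier apart from it, and Cyp2c69 (1.13) and Cyp2c39 lay below them. In old mice the mean per kilobase was 440 ± 109 CPM for Cyp2c29 (SD, n = 9), 284 for Cyp2c50, 148 for Cyp2c67 and 137 for Cyp2c37. Cyp2c68 (100.4) and Cyp2c54 (90.6) came next, before 8.72 for Cyp2c38, 8.26 for Cyp2c40, 2.09 for Cyp2c69 and 0.545 for Cyp2c39. Only the middle tier changed its order of means: Cyp2c54 was the fourth highest member in young mice and the sixth in old mice. The neighbours in that tier overlapped in range at both ages. Cyp2c50 and Cyp2c67, apart in young mice, overlapped in old mice.

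**Figure D1:**
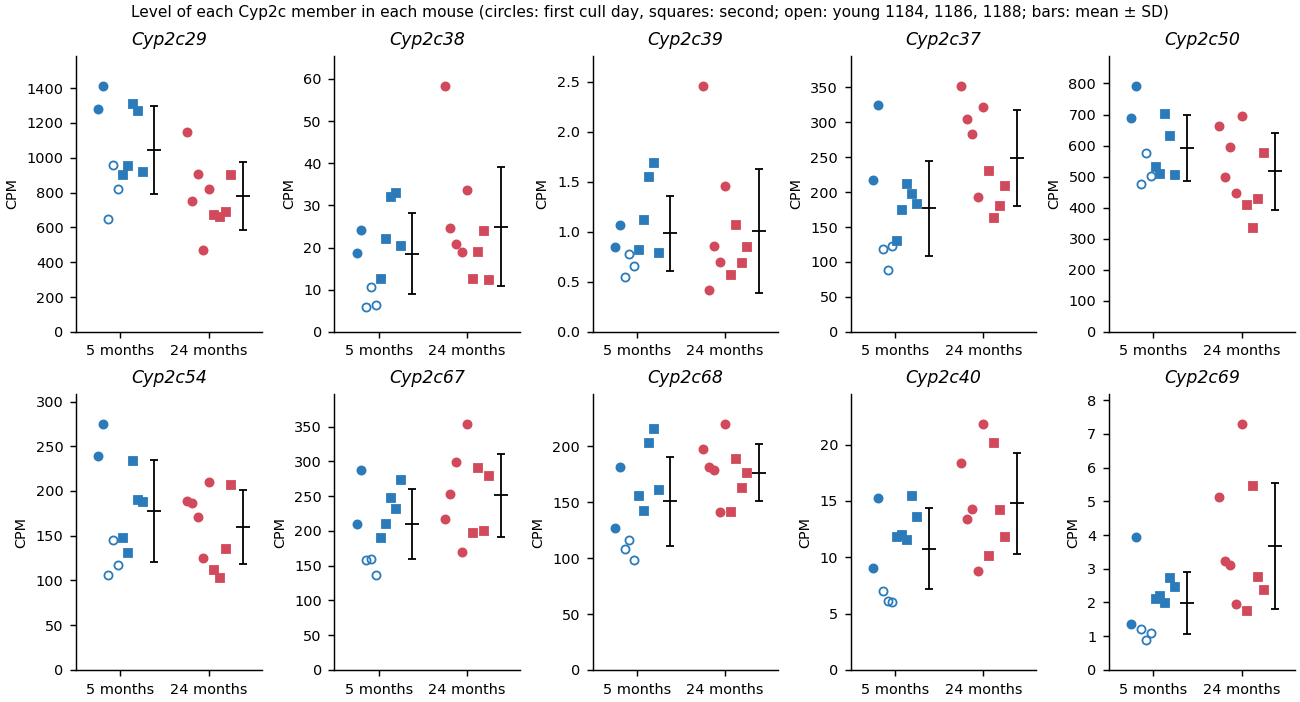
CPM (vertical axes, linear from 0) of each member in each of 10 young and 9 old mice, with circles for the first cull day, squares for the second, open symbols for young mice 1184, 1186 and 1188, and bars for mean ± SD. The age groups overlap for all 10 members, and the open symbols are the 3 lowest young mice for 7 of them.

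The sum over the family overlapped between ages. The 10 members together had 2386 ± 546 CPM at 5 months (n = 10, SD; 1631 to 3320) and 2178 ± 451 CPM at 24 months (n = 9, SD; 1579 to 2854), which overlap widely. Cyp2c29 supplied 43.8% ± 2.24 of it in young mice (SD, n = 10; 39.7% to 46.4%) and 35.7% ± 3.53 in old mice (SD, n = 9; 29.9% to 40.3%), so the ranges just overlap. The second sequence group supplied 39.7% ± 2.01 and 42.4% ± 4.13, and the third 15.7% ± 2.23 and 20.8% ± 3.38 (SD, n = 10 and 9). The ranges of both groups also overlapped between ages. These shares are of counts, not per length, and have no test.

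The age comparison asks which hepatocyte transcripts differ between young and old mice. It was fitted in edgeR (quasi-likelihood test) to the 12269 genes above the filter on low counts, with cull day in the model, and all 10 members were above that filter. At an adjusted p of at most 0.05, 1 member was higher in old mice, Cyp2c69, and 1 was lower, Cyp2c29. Over all genes 16.3% were called higher and 14.5% lower (30.9% in all), so 2 of 10 members (20%) is no more than the background. At an unadjusted p under 0.05 there were 4 members (Cyp2c29, Cyp2c37, Cyp2c40 and Cyp2c69), against 42.3% of all genes. Fitted log2 fold changes were positive for 7 members and negative for 3, with a median of 0.26, against -0.003 over all genes. No member's age groups were separate, whereas those of 1.72% of all genes were, in either direction.

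Cyp2c29, an arachidonic acid epoxygenase and the main Cyp2c transcript here, had 648, 955 and 1414 CPM (lowest, median, highest) in young mice and 472, 752 and 1150 CPM in old mice. The groups overlapped, but 8 of 9 old mice lay below the young median and 4 young mice lay above all old mice. It fell by 25.7% with age, a log2 fold change of -0.43 (SE 0.161, 95% interval -0.76 to -0.09, edgeR adjusted p = 0.0498). That call is at the threshold and was lost in 16 of 19 fits with 1 mouse left out, where values ran from -0.51 to -0.36 (edgeR adjusted p = 0.0202 to 0.0995). The weakest was without young mouse 1182. Without old mouse 1187, the lowest old mouse, it was -0.36 (adjusted p = 0.0783 in edgeR). Adding the score of other liver cells gave -0.08 (adjusted p = 0.800 in edgeR). Without young mice 1184, 1186 and 1188 it was -0.62 (adjusted p = 0.00972 in edgeR). Over all alternatives the adjusted p ran from 0.00972 to 0.800. The part of other cells' RNA in this difference was not tested.

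Cyp2c38, also an arachidonic acid epoxygenase, ranged from 5.91 to 32.9 CPM in young mice (median 19.6) and from 12.4 to 58.4 CPM in old mice (median 20.8). Its log2 fold change was 0.44 (SE 0.354, edgeR adjusted p = 0.363). Without old mouse 1181, the highest, it was 0.21 (edgeR adjusted p = 0.637), and without young mouse 1184 or 1188 it was 0.28 or 0.29. The 2 cull days gave opposite signs. On the first, young mice ranged from 5.91 to 24.1 CPM around a median of 10.6 and old mice reached 58.4 CPM around a median of 24.6, a log2 fold change of 1.25 (adjusted p = 0.114 in edgeR). On the second, young mice lay at 12.5 to 32.9 CPM and old mice at 12.6, 19.1, 23.8 and 12.4 CPM, a log2 fold change of -0.49 (adjusted p = 0.234 in edgeR). The 3 lowest values of the first day's young mice belong to 1184, 1186 and 1188, and without them the value over both days was -0.11 (adjusted p = 0.822). Cyp2c39, known as a retinoic acid hydroxylase, had 8 to 48 counts per library, the fewest of the family. It had 0.547, 0.830 and 1.69 CPM in young mice and 0.416, 0.844 and 2.46 CPM in old mice, a log2 fold change of 0.04 (95% interval -0.60 to 0.68, edgeR adjusted p = 0.930). At these counts the interval takes in both falls and rises.

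Among the second sequence group, Cyp2c37, which hydroxylates and epoxidises arachidonic acid, had 89.0, 178 and 325 CPM in young mice and 162, 230 and 352 CPM in old mice. Its log2 fold change was 0.45 (SE 0.205, 95% interval 0.02 to 0.88, edgeR adjusted p = 0.101), and 8 of 9 old mice lay above the young median. On the first cull day young mice had 217, 325, 118, 89.0 and 123 CPM against 352, 305, 283, 193 and 321 CPM in old mice. On the second day young mice had 131, 174, 212, 198 and 182 CPM against 230, 162, 180 and 208 CPM in old mice. The groups overlapped on both days, with a log2 fold change of 0.74 and then 0.13. Cyp2c50 and Cyp2c54 are epoxygenases close to Cyp2c37 in sequence. Cyp2c50 had 477, 553 and 793 CPM in young and 335, 500 and 697 CPM in old mice (log2 fold change -0.22, SE 0.127, edgeR adjusted p = 0.194). Cyp2c54 had 107, 168 and 275 CPM in young and 102, 171 and 210 CPM in old mice (log2 fold change -0.17, SE 0.187, edgeR adjusted p = 0.515). Without young mice 1184, 1186 and 1188, Cyp2c50 passed as lower at -0.38 (adjusted p = 0.0347 in edgeR). Cyp2c54 was then -0.43 and did not pass (adjusted p = 0.0511 in edgeR). With 1 mouse left out, Cyp2c54 ran from -0.26 to -0.07.

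In the third sequence group all 4 members had positive fitted values over the 19 mice, with 1 past the threshold. Cyp2c69 had 0.892, 2.04 and 3.93 CPM in young mice and 1.75, 3.11 and 7.30 CPM in old mice, from 16.5 to 140 counts per library. The groups overlapped, with 3 old mice above all young mice and 4 young mice below all old mice. With age it rose by 0.88 on the log2 scale (SE 0.306, 95% interval 0.24 to 1.52, edgeR adjusted p = 0.0356). Of its windows of read length, 36.3% also occur in transcripts of Cyp2c40, Cyp2c67 or Cyp2c68, and Cyp2c67 and Cyp2c68 were far more abundant. The part of reads from these neighbours in the counts and the rise of Cyp2c69 was not tested. On the first cull day young mice had 1.37, 3.93, 1.20, 0.892 and 1.10 CPM and old mice 5.12, 3.22, 3.11, 1.96 and 7.30 CPM. On the second day young mice had 2.10, 2.18, 1.98, 2.73 and 2.45 CPM and old mice 1.75, 5.44, 2.76 and 2.37 CPM. Alone, the first day gave 1.28 (adjusted p = 0.126) and the second 0.43 (adjusted p = 0.321) in edgeR, and neither day passed by itself. The call was also lost without young mice 1184, 1186 and 1188 (0.51, adjusted p = 0.220 in edgeR). Leaving out any 1 of 7 mice (1180, 1181, 1184, 1186, 1188, 1189 or 1238) ended it too, at 0.70 to 0.82 (edgeR adjusted p = 0.0576 to 0.0862). Cyp2c40, which hydroxylates arachidonic acid, had 6.03, 11.7 and 15.4 CPM in young and 8.82, 14.2 and 21.9 CPM in old mice (log2 fold change 0.49, SE 0.202, edgeR adjusted p = 0.0696). Cyp2c67 had 136, 210 and 287 CPM in young and 169, 253 and 354 CPM in old mice (0.27, SE 0.154, edgeR adjusted p = 0.192). Cyp2c68 had 98.2, 149 and 215 CPM in young and 141, 179 and 220 CPM in old mice (0.26, SE 0.135, edgeR adjusted p = 0.153). Alternatives other than leaving out each mouse in turn gave 0.13 to 0.83 for Cyp2c40 and 0.06 to 0.53 for Cyp2c67. For Cyp2c68 they gave -0.06 to 0.54.

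**Figure D2:**
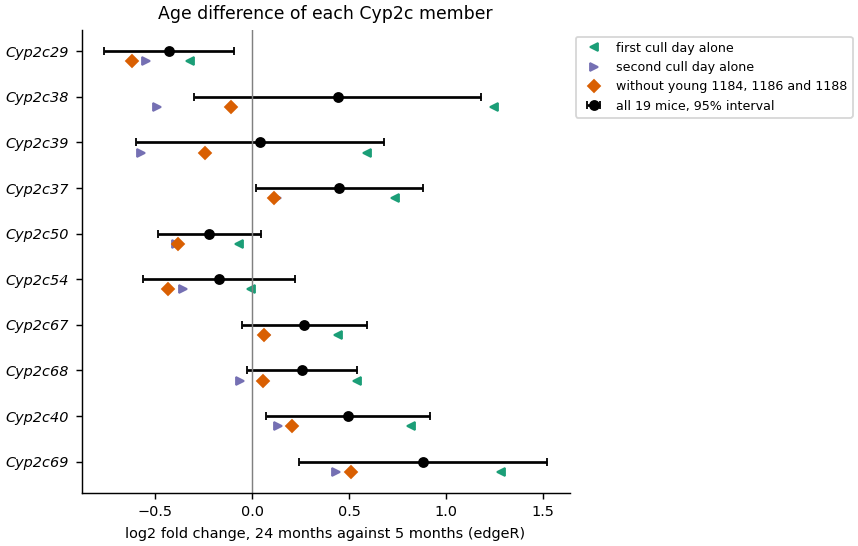
Log2 fold change of old against young mice (horizontal axis) for each member, as black points with 95% intervals over all 19 mice, and as coloured symbols for each cull day alone and for the fit without young mice 1184, 1186 and 1188. Cyp2c29 lies below 0 in all 4 fits, whereas Cyp2c38 runs from -0.49 to 1.25.

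Young mice 1184, 1186 and 1188 had lower mean CPM than the other 7 young mice for all 10 members, at 0.330 of the others' mean for Cyp2c38 and up to 0.832 for Cyp2c50. They were the 3 lowest young mice for 7 members, the exceptions being Cyp2c29, Cyp2c50 and Cyp2c54. Without them edgeR called 0 members higher (0 at an unadjusted p under 0.05) and 2 lower, Cyp2c29 and Cyp2c50. Over all genes that fit called 14.6% higher and 12.5% lower. With the acute phase score as a covariate instead, 5 were called higher (Cyp2c37, Cyp2c40, Cyp2c67, Cyp2c68 and Cyp2c69), against 19.2% of all genes, and 1 lower, against 16.6%. When the covariate was the other-cell score, 4 were called higher (Cyp2c37, Cyp2c40, Cyp2c68 and Cyp2c69), against 6.77% of all genes, and 0 lower (0 at an unadjusted p under 0.05), against 6.4%. These 3 mice also had a mean log2 CPM of 3.66 to 5.74 over Sox9 and Spp1, the 2 of 6 cholangiocyte markers above the filter, against 1.48 to 2.44 in the other 7. Over the macrophage markers they had 3.52 to 4.68 against 2.23 to 3.77. The part of the acute phase genes and of other cells in the age differences was not tested.

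**Figure D3:**
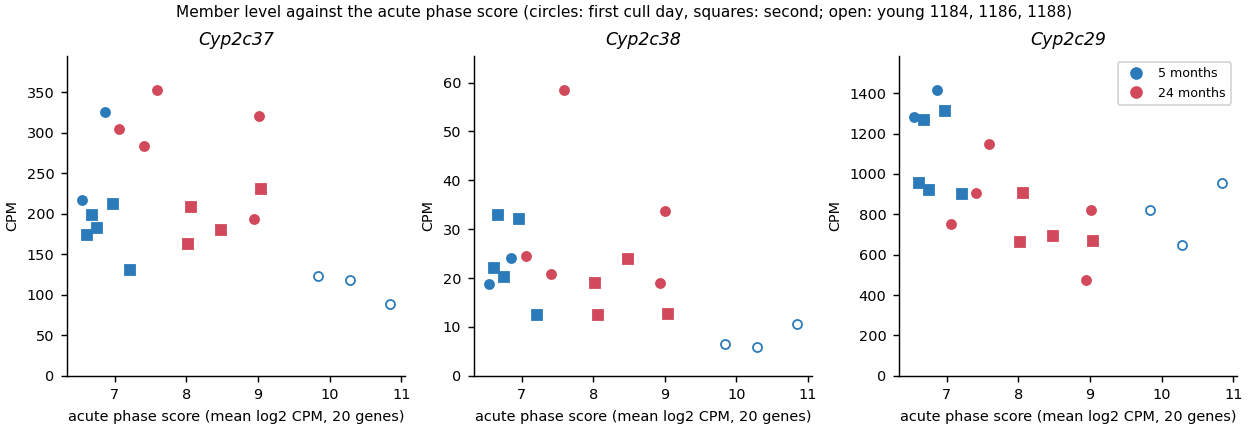
CPM of Cyp2c37, Cyp2c38 and Cyp2c29 (vertical axes, linear from 0) against the acute phase score, the mean log2 CPM of 20 genes (horizontal axis), with symbols as in the plot of levels. The 3 open symbols lie at 9.84 to 10.84 on the score, beyond all old mice, and hold the 3 lowest young values of Cyp2c37 and Cyp2c38.

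No member passed by cull day. That term of the edgeR fit called 0 of 10 members, against 12.3% of all genes. At an unadjusted p under 0.05 there were 0 members, against 30% of all genes. DESeq2 called 0 members, against 17.4% of the genes it gave an adjusted p. For the interaction of age with cull day, edgeR called 0 members and 0 genes in all (0%). DESeq2 called 0 members, against 0.575% of the genes it gave an adjusted p. At an unadjusted p under 0.05 in edgeR there were 2 members (6.51% of all genes). Those 2 were Cyp2c38, with an interaction of -1.74 (p = 0.00679, edgeR adjusted p = 0.650), and Cyp2c68, with -0.61 (p = 0.0183, edgeR adjusted p = 0.708). The interaction was negative in all 10 members, meaning a smaller or more negative age difference on the second day. The members share the same mice, so these 10 signs are not independent. Young mice 1184, 1186 and 1188 were all culled on day 1. Without them the cull day term called 0 members and 0% of all genes in edgeR, with 3 members at an unadjusted p under 0.05. The interaction then also called 0 members and 0% of all genes, with 0 members at an unadjusted p under 0.05.

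Ratios between members within a mouse do not depend on library scaling. This comparison was added after the data had been seen, with Cyp2c29 as the reference because it was the most abundant member. Each count was divided by the Cyp2c29 count of the same mouse on the log2 scale, with 0.5 added to both. Old and young mice were then compared by relabelling them within cull days, in an exact two-sided permutation test adjusted over all 12268 other genes. The ratio was called higher in old mice for 6 of 9 members, against 36.2% of all genes. As Cyp2c29 itself fell, the median of all genes rose by 0.43 against it, and the members are to be read against that shift. The permutation p tests a difference of 0, and no member was tested against the shift. The 9 ratios share 1 denominator and are not independent.

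Cyp2c37 had 9.30, 16.5 and 23.0 counts per 100 Cyp2c29 counts (lowest, median, highest) in young mice and 23.1, 31.2 and 41.0 in old mice. Each of the 9 old mice exceeded each of the 10 young mice, though the closest pair, at 22.98 and 23.07, nearly met. Of all genes set against Cyp2c29 in the same way, 1.04% had age groups apart in either direction. The log2 ratio differed by 0.93 (exact permutation p = 3.15e-05, as small as 31752 relabellings allow, adjusted p = 0.0028). By cull day it was 1.19 and then 0.67. It was 0.77 without young mice 1184, 1186 and 1188 (exact permutation adjusted p = 0.0052) and 0.91 without old mouse 1187 (exact permutation adjusted p = 0.00572). Without the 3 young mice, however, 69.1% of all genes were called higher against Cyp2c29, and Cyp2c37's own log2 fold change was 0.11 (edgeR adjusted p = 0.572).

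The third sequence group was higher against Cyp2c29 as well, again tested against 0 and not against the shift of the median gene. Cyp2c69 had 0.0961, 0.203 and 0.280 counts per 100 in young mice and 0.265, 0.421 and 0.893 in old mice, a log2 difference of 1.26 (exact permutation adjusted p = 0.00357). Cyp2c40 had 0.638, 1.08 and 1.47 in young and 1.31, 1.79 and 3.04 in old mice, a difference of 0.90 (exact permutation adjusted p = 0.00389). All 9 old mice lay above the young median for both. Cyp2c68 had 9.89, 15.2 and 17.4 in young and 17.2, 23.6 and 29.8 in old mice, a difference of 0.68 (exact permutation adjusted p = 0.0028). Cyp2c67 had 16.3, 19.6 and 29.7 in young and 18.9, 32.9 and 43.9 in old mice, also a difference of 0.68 (exact permutation adjusted p = 0.00867). The age groups overlapped in all 4. For Cyp2c67, 3 old mice lay below the highest young mouse and 5 young mice above the lowest old mouse, and for the other 3 it was 1 or 2 mice on each side. Cyp2c38 differed by 0.87 (exact permutation adjusted p = 0.0311), with 1.66 on day 1 and 0.07 on day 2. It did not pass in 4 of 19 runs with 1 mouse left out (1180, 1187, 1238 or 1240; 0.76 to 0.91, exact permutation adjusted p = 0.0508 to 0.0641) or without the 3 young mice (0.64, exact permutation adjusted p = 0.0586).

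The remaining 3 members did not pass. Cyp2c54 differed by 0.28 (exact permutation adjusted p = 0.0645), Cyp2c50 by 0.20 (exact permutation adjusted p = 0.0753) and Cyp2c39 by 0.34 (exact permutation adjusted p = 0.194). With Cyp2c50 as the reference, whose ratio to Cyp2c29 differed by less than that of the median gene, 5 of 9 other members were called higher, against 16% of all genes, and the median gene rose by 0.23. Those 5 were Cyp2c37 (0.74), Cyp2c40 (0.70), Cyp2c67 (0.49), Cyp2c68 (0.49) and Cyp2c69 (1.06). Cyp2c37 had 15.5, 30.8 and 41.0 counts per 100 Cyp2c50 counts in young mice and 36.1, 47.7 and 60.9 in old mice, which overlap. Cyp2c37 and Cyp2c50 are 95.8% identical as transcripts and share 57 windows of 100 bases, so the split of reads between them is uncertain. Without young mice 1184, 1186 and 1188, 5 of 9 members were higher against Cyp2c29 while 69.1% of all genes were also called higher, so that count does not exceed its background.

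**Figure D4:**
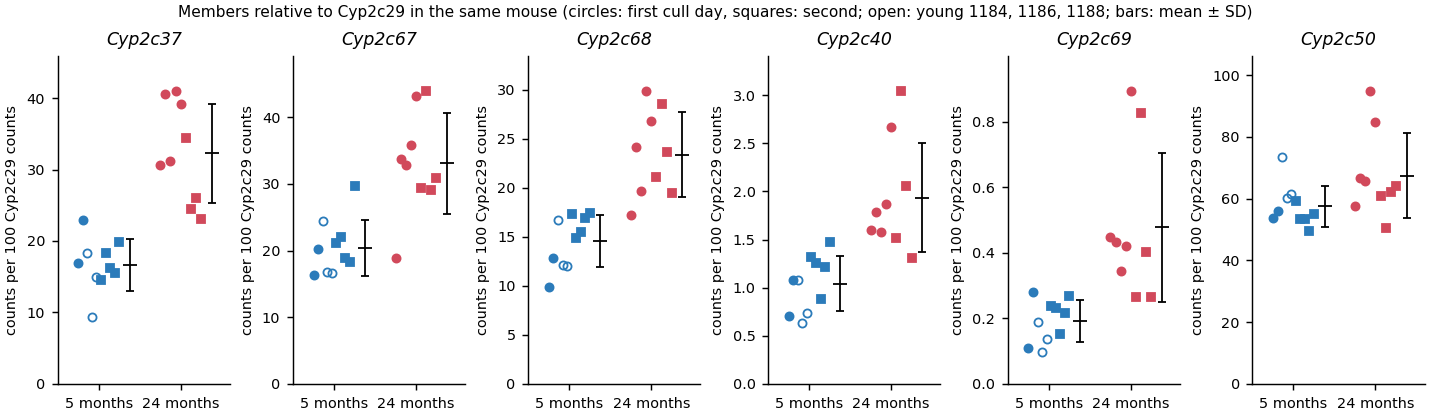
Counts per 100 Cyp2c29 counts (vertical axes, linear from 0) for Cyp2c37, the 4 members of the third sequence group and Cyp2c50 in each mouse, with symbols as in the plot of levels and bars for mean ± SD. For Cyp2c37 the lowest old mouse, at 23.07, lies above the highest young mouse, at 22.98, whereas the other 5 members overlap.

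Among mice of the same age and cull day the members rose and fell together. With the means of age by cull day removed, Pearson's r between log2 CPM of 2 members over 19 mice was 0.336 to 0.975. It had a median of 0.777 over the 12 pairs within a sequence group and 0.612 over the 33 pairs between groups. The highest was 0.975 for Cyp2c40 and Cyp2c69, which also share 456 windows of 100 bases, and the part of shared reads in this value was not tested. Cyp2c50 and Cyp2c54 correlated at 0.90, and Cyp2c29 correlated with both more closely (0.87 and 0.83) than with Cyp2c38 (0.76) or Cyp2c39 (0.66) of its own group. All values share the libraries and their scaling, and the 3 young mice apart from the others are among the points.

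**Figure D5:**
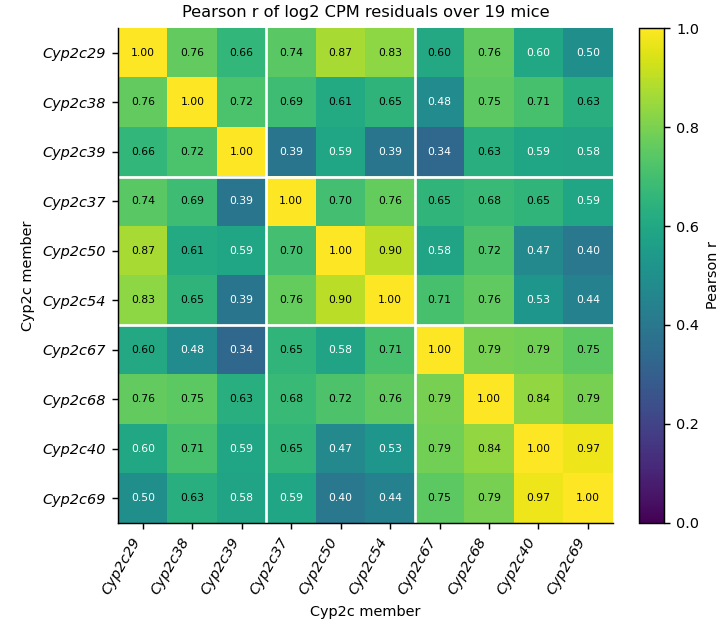
Pearson's r of log2 CPM between each pair of members (both axes) over 19 mice after removing age by cull day means, coloured from 0 to 1, with white lines between the 3 sequence groups. All values are positive, and the pair Cyp2c40 and Cyp2c69 is the highest at 0.975.

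Outside the family, the genes whose pattern was most like each member were the top 3 of 11606 genes with a mean of at least 1 CPM, by Pearson's r of log2 CPM over 19 mice. Ces1c, a carboxylesterase, was the first for Cyp2c69 (0.885), Cyp2c67 (0.868) and Cyp2c40 (0.865) and the second for Cyp2c37 (0.858). It stayed the first for Cyp2c69, Cyp2c67 and Cyp2c40 with age by cull day means removed (0.828, 0.889 and 0.883) and was the second for Cyp2c68 (0.840). Cyp2c38 was closest to Vnn1 (0.919), a pantetheinase, Cyp4a14 (0.906), a fatty acid hydroxylase, and Acot2 (0.903), an acyl-CoA thioesterase. Cyp2c50 and Cyp2c54 were closest to Cyp2e1 (0.881 and 0.797), a pericentral P450. With the means removed, Cyp2c50 was closest to Gc (0.902) and then to Cyp2e1 (0.829). Cyp2c54 was then closest to Apoh (0.891), with Cyp2e1 outside its top 3. On that scale Pex3 came first for Cyp2c38 (0.903) and Tmed4 for Cyp2c68 (0.860). Cyp2c29 was closest to AW495222 (0.917), Aifm1 (0.894) and Dmgdh (0.889), and with the means removed to Gstt3 (0.922), a glutathione transferase. Cyp2c68 was closest to Hgfac (0.851), the hepatocyte growth factor activator, and Cyp2c39 to Gbe1 (0.824), the glycogen branching enzyme. All these are descriptions over the same 19 libraries.

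Genes that work with the enzymes were read from lists, whose counts stand against 16.3% of all genes called higher and 14.5% called lower in the same edgeR fit. The DESeq2 counts stand against 16.5% called higher and 15.1% called lower by DESeq2. Of 6 other genes with a Cyp2c symbol, 3 passed the filter and none was called: Cyp2c44 (-0.02), Cyp2c55 (0.22) and Cyp2c70 (0.32). At an unadjusted p under 0.05 in edgeR, and by DESeq2, there were also 0 of the 3. Of 5 genes listed as electron donors or partners of P450 enzymes, 1 was lower, Cyb5b, a cytochrome b5 (log2 fold change -0.37, edgeR adjusted p = 0.0156). DESeq2 called 3 lower. The other cytochrome b5 listed, Cyb5a, did not pass in edgeR (-0.15, edgeR adjusted p = 0.157). P450 oxidoreductase, Por, averaged 190 CPM at 5 months and 154 CPM at 24 months and did not pass (-0.32, edgeR adjusted p = 0.0811). Of 10 epoxide hydrolases and other arachidonate enzymes tested, Ephx2, the soluble epoxide hydrolase, was lower (-0.54, edgeR adjusted p = 0.00631) and Cyp2j9, another arachidonate P450, was higher (0.90, edgeR adjusted p = 0.0234).

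Among 11 genes of retinoid metabolism, to which Cyp2c39 belongs by activity, 5 were higher and 1 lower. Cyp26a1, the main retinoic acid hydroxylase of liver, rose by 1.67 (edgeR adjusted p = 0.00168), Lrat by 1.52 and Rarb by 1.05, and Aldh1a1 fell by 0.29. Lrat is also a stellate cell marker. Of 16 receptors and hepatocyte factors, 4 were lower in edgeR and 5 in DESeq2. The 4 were Onecut2 (-0.41), Rxra (-0.27), Hnf4a (-0.30, edgeR adjusted p = 0.0268) and Ppara (-0.46). CAR (Nr1i3, -0.03) and PXR (Nr1i2, -0.10) did not pass. Of their 12 tested targets 1 was called, Cyp2b9, a P450 also on the female-biased list. It had 0 to 0.158 CPM in young and 1.94 to 83.3 CPM in old mice (edgeR adjusted p = 3.19e-05), with no overlap. Of the growth hormone axis, 0 of 9 tested genes were called in edgeR or DESeq2 (1 at an unadjusted p under 0.05 in edgeR). Of 14 male-biased genes 10 were lower and 1 higher, and of 9 female-biased genes tested 3 were higher. Of 14 pericentral genes 5 were lower in edgeR (7 in DESeq2), including Cyp1a2 (-0.91), and of 12 periportal genes 5 were lower and 3 higher.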

How the data were processed

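The authors deposited 1 table of estimated counts per gene for 19 libraries, in steps of 0.5. Per the file headers, HOMER's analyzeRepeats.pl counted reads in exons of RefSeq transcripts on mm10, condensed them to genes and applied no scaling. STAR is also named, per the submitters' processing notes. Versions, the strand setting and the treatment of reads with several matches are not given in the sources used here. Per the labels' protocols, libraries were stranded and paired-end, from Trizol and chloroform extracts.

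The estimated counts were rounded and fitted in edgeR 4.0.16 (R 4.3.3, TMM, filterByExpr with a minimum count of 10, Benjamini-Hochberg threshold 0.05). The tests had been chosen for plain counts and were kept. CPM uses the same scaling, and log2 CPM a prior count of 2. Scores are means of log2 CPM. Intervals are 95%, with each SE taken from the log2 fold change and its F statistic. DESeq2 1.42.0 and limma-voom (limma 3.58.1) were alternatives. The edgeR fit and the ratio test were tested on simulated data. Transcript identity came from GENCODE M21 and promoters from RefSeq, with Python 3.11.15 (numpy 2.4.6, pandas 2.3.3, Biopython 1.88, matplotlib 3.10.9).

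All 10 members are named. Of each gene list, up to 4 called genes with the smallest p are named, with others where their lack of a call matters. Likeness took the 3 genes outside the family with the highest r. The members and lists were chosen with earlier results of these data known, and the ratio comparisons after these values were seen. Alternatives were other scaling, filters, tests and covariates, each cull day alone, and leaving out mice.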

Additional observations from a re-analysis of the deposited data

Results flagged for a closer look

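In 38 groups of values (the CPM of each member, and its ratio to Cyp2c29, at each age), 2 held 1 mouse far from the others by Dixon's criterion at 95%, and chance alone flags about 1 in 20 groups. Old mouse 1181 had 58.4 CPM of Cyp2c38, against 33.7 CPM in the next highest old mouse. Without it the log2 fold change of Cyp2c38 was 0.21 in place of 0.44, and that of Cyp2c39, for which 1181 was also the highest old mouse, was -0.23 in place of 0.04. Young mouse 1184 had 73.6 Cyp2c50 counts per 100 Cyp2c29 counts, against 61.5 in the next young mouse. It is 1 of the 3 young mice with high acute phase scores, and its Cyp2c29 level of 648 CPM was the lowest among young mice.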

How the results depend on the processing

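Of the 10 members, 1 was called higher with age and 1 lower. With the share of all genes called in the same direction in parentheses, the higher count was 2 with library totals (17.1%), 4 with the other-cell covariate (6.77%), 5 with the acute phase covariate (19.2%), and 0 on the first cull day alone (1.88%), on the second alone (12.2%), and without young mice 1184, 1186 and 1188 (14.6%). The lower count was 2 without those 3 mice (12.5%). It was 0 with at least 50 counts in 9 libraries (12.7%), limma-voom (15.7%), no cull day term (11.5%), the first cull day alone (1.79%), the other-cell covariate (6.4%), and without old mouse 1187 (12.1%). Leaving out each mouse in turn gave 0 to 3 higher (12.4% to 16.9%) and 0 to 1 lower (12.1% to 15.2%). Cyp2c69 lost its call in 7 of 19 such fits (without 1180, 1181, 1184, 1186, 1188, 1189 or 1238) and Cyp2c29 in 16 of 19 (all but 1181, 1184 and 1188). Without 1182, 3 members were called higher (14.9%), and without 1236, 2 were (15.2%). The cause of these changes was not tested, and fits that leave mice out also hold fewer mice.

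Some fitted values changed sign. Cyp2c38 was -0.49 on the second cull day and -0.11 without the 3 young mice. Cyp2c39 was -0.0585 in limma-voom with sample weights, -0.57 on the second day, -0.24 without the 3 young mice, and -0.23 to 0.15 with 1 mouse left out. Cyp2c54 was 0.15 with the other-cell covariate and Cyp2c68 -0.0611 on the second day. None of these was called. The ratio to Cyp2c29 was called higher for 6 members, and for 5 to 8 with 1 mouse left out, where 19.4% to 54.6% of all genes were called higher. The 8 came without 1181, at 53.6% of all genes. It was called for 0 on the first day alone (0% of all genes) and for 2 on the second (33.8% of all genes), and on each day the test cannot give p below 0.00794. Cyp2c39's ratio differed by -0.0038 on the second day.

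No paired analysis was possible because mice of the 2 ages share no replicate numbers. Counts of 8 to 48 limit Cyp2c39, and shared sequence limits Cyp2c40 and Cyp2c69.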
